A study of Mus musculus with 76 samples.

Results

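The imprinted growth genes of the mouse heart were followed with age: Igf2, H19, Dlk1, Mest, Peg3, Plagl1, Grb10, Cdkn1c, Igf2r and Ndn. A clone (a spotted cDNA) was included when the platform annotation gave it exactly 1 symbol and that symbol was one of these 10. This matching used no measured values, but the 10 genes were chosen with earlier results of these data known. The search found 17 clones of 8 genes among 16896 clones, of which 4 lay on array type A and 13 on array type B. H19 had 7 clones, Peg3 had 3, Igf2 had 2, and Dlk1, Plagl1, Grb10, Cdkn1c and Ndn had 1 each. The only clones found for Mest and Igf2r each carried a further symbol and were left out. Clones are named here by gene and array type, with a number that ranks the clones of a gene on a type from the highest mean z-score down.

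Hearts came from 38 C57BL/6 mice, 19 males and 19 females, kept on regular feed with free access to it, and the RNA of every mouse was measured on both array types. Per the labels, 4 mice were 17-19 days old (2 males), 5 were 33-44 days old (3 males), 10 were 169-194 days old (5 males), 10 were 476-499 days old (5 males) and 9 were 704-743 days old (4 males). No genotype or treatment differed between the groups, and no younger, fetal or newborn heart was measured. Values are the authors' z-scores: the spots of an array have mean 0 and an SD of 1, so differences are given in units of the spread among the clones of an array, and no fold change can be formed from it.

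Genomic imprinting silences the copy of a gene inherited from one parent. Many imprinted genes act on growth before and shortly after birth, and in mice a network of them is known to be shut down in several organs, the heart included, as growth slows over the first weeks of life. Igf2 encodes an insulin-like growth factor and is expressed from the paternal copy, while its neighbour H19 gives a noncoding RNA from the maternal copy and shares enhancers with it. Plagl1 is a zinc-finger transcription factor that activates other members of the network. Grb10, an adaptor bound to insulin and insulin-like growth factor receptors, and Cdkn1c, an inhibitor of cyclin-dependent kinases, restrain growth. Peg3 encodes a zinc-finger protein, Ndn encodes necdin, a protein that restrains cell proliferation, and Dlk1 encodes a membrane protein with epidermal growth factor-like repeats found in immature cells. The question asked here was whether the known postnatal fall of these genes is seen over 17-19, 33-44 and 169-194 days, and what they do at the older ages.

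In the RefSeq gene order of the mouse genome, Igf2, H19, Cdkn1c, Peg3 and Ndn lie on chromosome 7, with 2 other annotated genes between H19 and Igf2. Plagl1 lies on chromosome 10, Grb10 on chromosome 11 and Dlk1 on chromosome 12. The dinucleotide CpG, a site of DNA methylation, was counted in the 250 bases before each start site in the RefSeq promoter table of build GRCm38.p6. It held 10 such windows for 6 of the 8 genes and none for H19 or Cdkn1c. Methylation marks the parental copies at many imprinted genes, but the windows were not chosen as the regions that carry those marks. Grb10 and Igf2 gave the clones with the largest differences with age below, so the window of each that held most CpG is shown, on the minus strand, 5′ to 3′, with CpG in capitals. The Grb10 window held 40 CpG, a number reached by 1.31% of 32851 windows in the table, and the Igf2 window held 22, reached by 14.8%.
Grb10, chr11:12037421-12037670: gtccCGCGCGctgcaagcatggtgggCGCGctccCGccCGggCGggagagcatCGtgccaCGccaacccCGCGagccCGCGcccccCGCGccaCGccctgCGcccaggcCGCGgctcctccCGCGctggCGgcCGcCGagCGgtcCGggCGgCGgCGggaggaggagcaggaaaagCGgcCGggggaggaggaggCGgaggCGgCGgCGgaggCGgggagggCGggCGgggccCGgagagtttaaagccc
Igf2, chr7:142658805-142659054: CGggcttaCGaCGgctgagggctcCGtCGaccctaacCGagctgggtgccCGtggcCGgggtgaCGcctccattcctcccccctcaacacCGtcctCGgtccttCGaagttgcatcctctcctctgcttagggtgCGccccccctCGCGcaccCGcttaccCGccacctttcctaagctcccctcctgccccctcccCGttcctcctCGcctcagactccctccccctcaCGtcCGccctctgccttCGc
The other Igf2 windows held 10, 6 and 1 CpG, and the other Grb10 window held 8. The Plagl1 window held 19, the Dlk1 and Peg3 windows 8 each and the Ndn window 5, beside a median of 6 over all windows. The arrays measured RNA, so these counts describe the genes and not the hearts.

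No clone of an imprinted growth gene passed the test in any comparison of age bands or sexes. Of the 17 clones, 0 fell and 0 rose at an adjusted p of 0.05 between 17-19 and 169-194 days, the widest span of the young comparisons. That test (limma, Benjamini-Hochberg adjustment over all 16896 clones) called 0% of all clones, and a linear model without moderated variance also called 0. At an unadjusted P under 0.05 limma gave 2 of the 17 (Grb10 A and Igf2 B, in opposite directions), beside 705 of all clones, or 4.17%. With array weights limma called 61 clones, 0 of them among the 17, and Igf2 A joined these 2 at an unadjusted P under 0.05. In that weighted fit 2720 of all 16896 clones had an unadjusted P under 0.05. The 17 differences (169-194 minus 17-19 days) ran from -0.173 to 0.21 with a median of 0.006, and 11 were above 0. Over all clones the median difference was 0.0035 and 51.5% were above 0. Their median size was 0.0335, beside 0.062 over all clones.

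Band means stepped down from 17-19 through 33-44 to 169-194 days in 1 of the 17 clones, Plagl1 B, and stepped up in 5, beside 16.9% and 17% of all clones. In 13 of 17 the means of all 5 bands lay within a range smaller than the SD among mice of one band, as in 71.7% of all clones. The values of the 17-19 and 169-194 day mice overlapped in all 17 and failed to overlap in 0.13% of all clones. The plot of all values by mouse shows this spread.

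**Figure D1:**
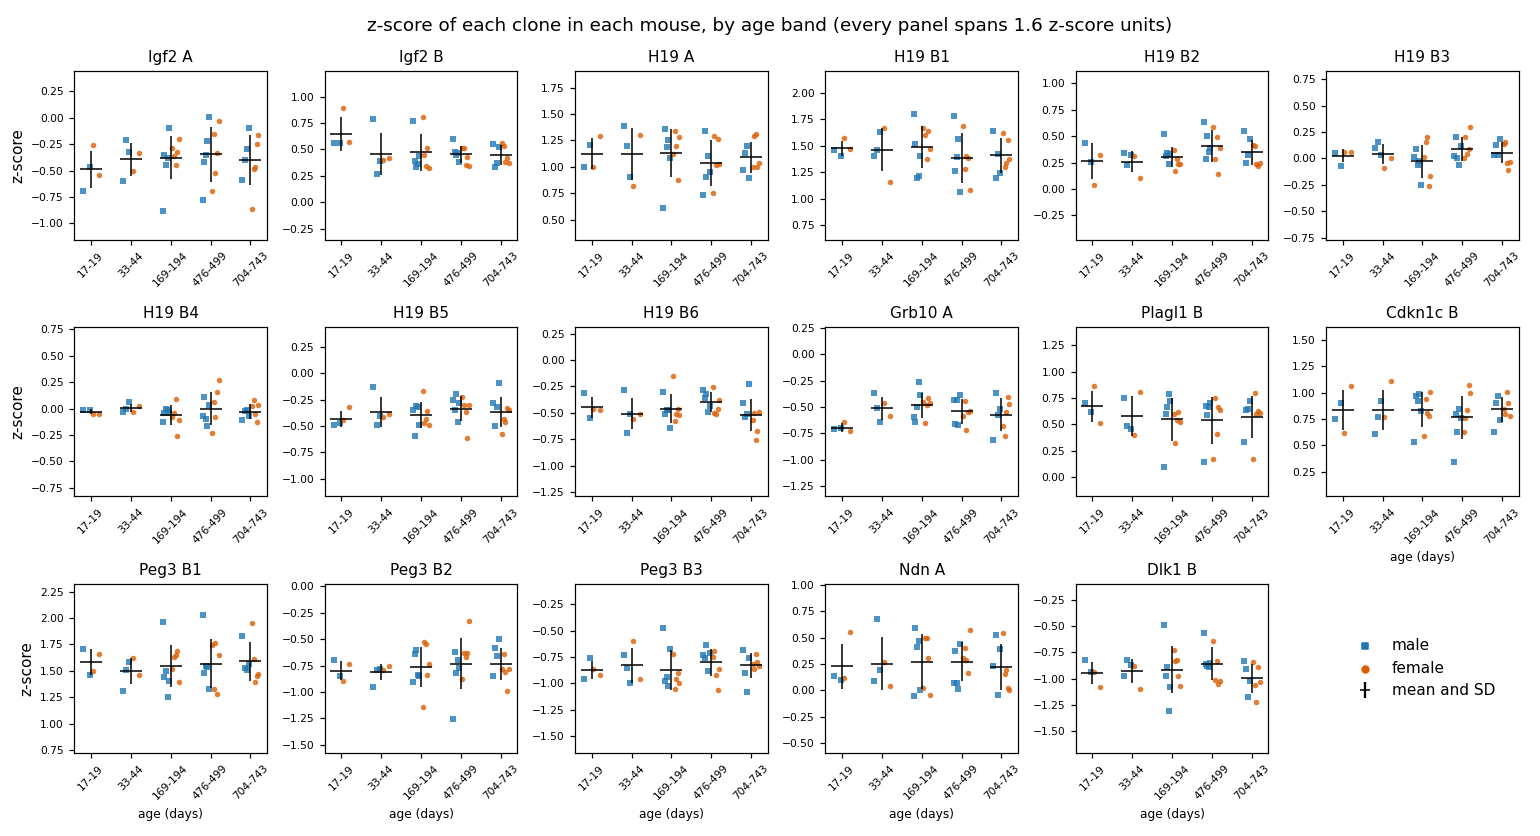
z-score (vertical axis) of each of the 17 clones in each mouse by age band in days (horizontal axis), males as squares and females as circles, with the band mean and SD in black; every panel spans 1.6 z-score units. Igf2 B and Plagl1 B have their highest mean at 17-19 days and Grb10 A its lowest, and the bands overlap in each panel.

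Igf2 was read by a clone on each array type, and the signs of their differences were opposite. The 4 mice of 17-19 days had Igf2 B z-scores of 0.56, 0.56, 0.57 and 0.89, and the 5 mice of 33-44 days had 0.27, 0.39, 0.4, 0.42 and 0.79. At 169-194 days the values ran from 0.32 through a median of 0.415 to 0.81. All 4 of the youngest mice lay above the 169-194 day median, and 1 mouse of each young band stood apart at the top. The mean was 0.645 ± 0.163 (SD, n = 4) at 17-19 days, 0.454 ± 0.197 (n = 5) at 33-44 days and 0.472 ± 0.178 (n = 10) at 169-194 days.

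The Igf2 B difference was -0.19 (95% interval -0.385 to 0.00384; limma, adjusted p = 1) for 33-44 minus 17-19 days. For 169-194 minus 17-19 days it was -0.173 ± 0.0845 (SE; 95% interval -0.344 to -0.00186), with an unadjusted P of 0.0477 and an adjusted p of 1 in limma. Without the highest 17-19 day mouse, replicate 1, the second difference was -0.0893 and the first was -0.109. Mice carry numbers in the labels that form 5 consecutive sets, and 4 sets hold a 17-19 day mouse. Igf2 B was lower at 169-194 days in 4 of these 4 sets, by differences from -0.225 to -0.1. Each of these sets holds 1 mouse of 17-19 days. The share of all clones with the same sign in every set is not given here, so the count is a description.

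The spots around Igf2 B on the array moved with it. Spot positions were inferred from the order of the identifiers, and the local level of an array was taken as the median deviation, from each spot's mean over mice, of the up to 24 spots in the surrounding 5 by 5 window. Around Igf2 B this local level was 0.146 ± 0.116 (SD, n = 4) at 17-19 days, -0.0113 ± 0.136 (n = 5) at 33-44 days and -0.00121 ± 0.106 (n = 10) at 169-194 days. With it subtracted (called position correction below), Igf2 B stood at 0.499, 0.465 and 0.473 in these bands, and its difference between 17-19 and 169-194 days was -0.0261 (95% interval -0.147 to 0.0945).

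Igf2 A had z-scores of -0.69, -0.54, -0.47 and -0.26 at 17-19 days and of -0.6, -0.5, -0.33, -0.32 and -0.21 at 33-44 days. At 169-194 days they ran from -0.88 through a median of -0.355 to -0.1, with the next mouse above the lowest at -0.45. The lowest was mouse 05, whose arrays correlated poorly with the others, and 3 of the 4 youngest mice lay below every other mouse of 169-194 days. The means were -0.49 ± 0.179 (SD, n = 4), -0.392 ± 0.156 (n = 5) and -0.378 ± 0.206 (n = 10). The difference was 0.1 (95% interval -0.201 to 0.401) for 33-44 minus 17-19 days and 0.112 ± 0.131 (SE; 95% interval -0.153 to 0.377; limma, adjusted p = 1) for 169-194 minus 17-19 days. Leaving out single mice moved the second difference from 0.0467 (without replicate 3 of 17-19 days) to 0.188 (without replicate 1 of that band). Without number set 1, the first run of mouse numbers, which holds mice 02 and 05, it was 0.247 (unadjusted P = 0.0207, adjusted p = 0.337 in limma), and with array weights it was 0.193. In the fit without number set 1, 1959 of all 16896 clones had an unadjusted P under 0.05 for this comparison. With the local level subtracted the differences became -0.0575 and 0.00211. The local level around Igf2 A was -0.0952 ± 0.0907 at 17-19 days and 0.0147 ± 0.198 at 169-194 days. With the local level subtracted, the 95% intervals for 33-44 minus 17-19 days ran from -0.169 to 0.104 in Igf2 B and from -0.2 to 0.0852 in Igf2 A. For 169-194 minus 17-19 days their lower ends were -0.147 and -0.124.

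**Figure D2:**
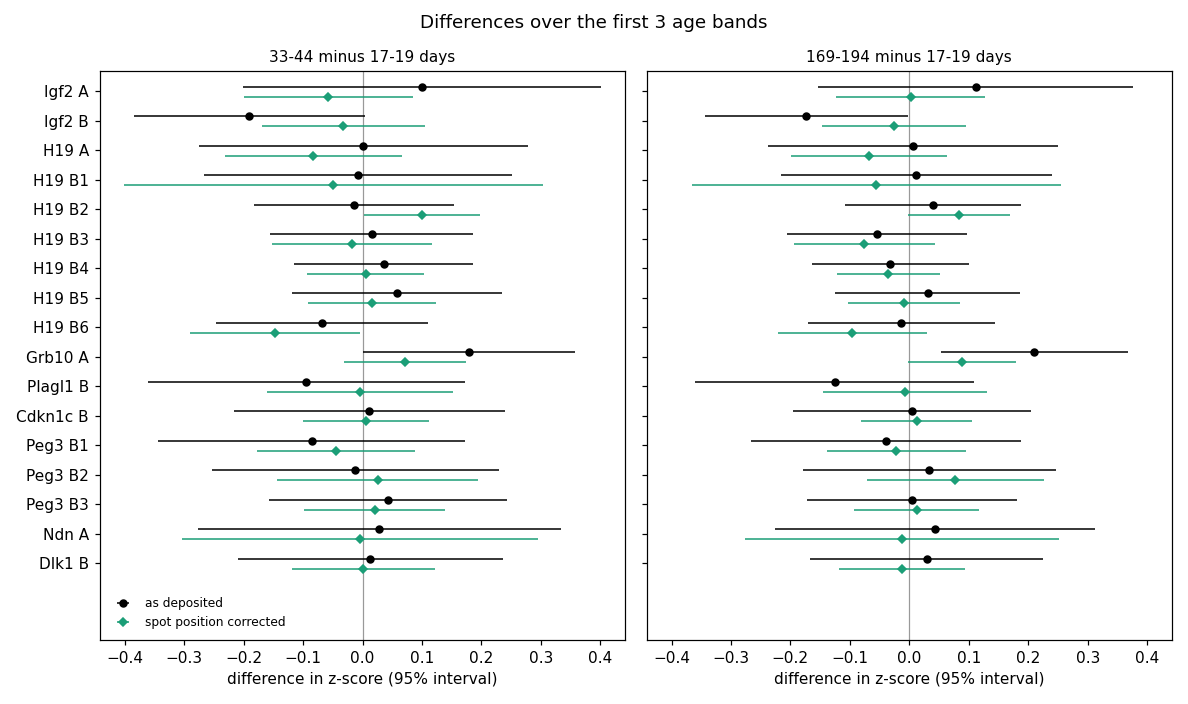
Difference in z-score (horizontal axis, with 95% interval from limma) for each clone, 33-44 minus 17-19 days on the left and 169-194 minus 17-19 days on the right, as deposited (black circles) and with the local level of the surrounding spots subtracted (green diamonds). As deposited, the intervals of Grb10 A and Igf2 B at 169-194 minus 17-19 days lie off 0; with the local level subtracted, none of the 17 does so in that comparison, while for 33-44 minus 17-19 days H19 B6 lies below 0 and H19 B2 above it.

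Grb10 A, the receptor adaptor, was lowest in the youngest mice. Its z-scores were -0.73, -0.71, -0.7 and -0.64 at 17-19 days and -0.64, -0.59, -0.51, -0.46 and -0.37 at 33-44 days. At 169-194 days they ran from -0.65 through a median of -0.47 to -0.26, so 3 of the 4 youngest mice lay below every adult of that band. The means were -0.695 ± 0.0387 (SD, n = 4), -0.514 ± 0.106 (n = 5) and -0.485 ± 0.12 (n = 10).

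The Grb10 A difference was 0.179 (95% interval 0.000751 to 0.357) for 33-44 minus 17-19 days. For 169-194 minus 17-19 days it was 0.21 ± 0.0775 (SE; 95% interval 0.0529 to 0.367), with an unadjusted P of 0.0102 and an adjusted p of 0.985 in limma. It was higher at 169-194 days in 4 of 4 number sets, and leaving out any single mouse kept it between 0.185 and 0.232. As for Igf2 B, the count of sets has no share over all clones beside it. The local level around Grb10 A was -0.0726 ± 0.0702 at 17-19 days and 0.0488 ± 0.127 at 169-194 days. With it subtracted the difference was 0.0885 (95% interval -0.00164 to 0.179), with an unadjusted P of 0.0541 in limma. The sign of this difference is opposite to a fall after 17-19 days.

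Plagl1 B, the transcription factor, had z-scores of 0.51, 0.62, 0.7 and 0.86 at 17-19 days and 0.4, 0.46, 0.48, 0.75 and 0.81 at 33-44 days. The adults of 169-194 days ran from 0.1 through a median of 0.6 to 0.79. The means were 0.673 ± 0.147 (SD, n = 4), 0.58 ± 0.186 (n = 5) and 0.547 ± 0.201 (n = 10), a series of small steps down with wide overlap. The difference was -0.0944 (95% interval -0.361 to 0.172) for 33-44 minus 17-19 days and -0.126 ± 0.116 (SE; 95% interval -0.36 to 0.109; limma, adjusted p = 1) for 169-194 minus 17-19 days. Without the mice of the first number set the latter was -0.00365, and within that set it was -0.51. The local level around Plagl1 B was 0.106 ± 0.0865 at 17-19 days and -0.0121 ± 0.111 at 169-194 days, and with it subtracted the difference was -0.00703 (95% interval -0.145 to 0.131).

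**Figure D3:**
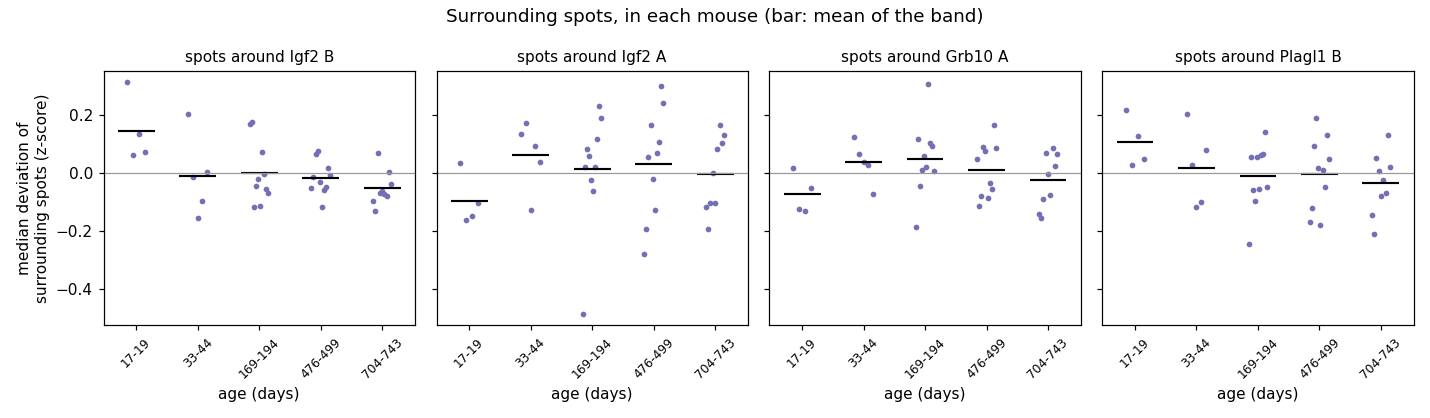
Median deviation of the surrounding spots in z-score units (vertical axis) around Igf2 B, Igf2 A, Grb10 A and Plagl1 B in each mouse (points) by age band in days (horizontal axis), with the band mean as a bar. At 17-19 days the mean is above 0 around Igf2 B and Plagl1 B and below 0 around Igf2 A and Grb10 A, the same sides on which the clones themselves stand.

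H19, the noncoding neighbour of Igf2, showed no step over the first 3 bands on its brightest clones. H19 B1, brighter on average than 93.8% of the type B spots, had z-scores of 1.4, 1.46, 1.47 and 1.57 at 17-19 days and 1.16, 1.4, 1.46, 1.63 and 1.67 at 33-44 days. At 169-194 days it ran from 1.19 through a median of 1.495 to 1.8, a range that holds all 4 of the youngest mice. Its mean was 1.475 ± 0.0705 (SD, n = 4), 1.464 ± 0.204 (n = 5) and 1.487 ± 0.199 (n = 10), and the difference (169-194 minus 17-19 days) was 0.012 ± 0.113 (SE; 95% interval -0.216 to 0.24).

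H19 A, brighter than 86.6% of the type A spots, had z-scores of 1, 1, 1.21 and 1.29 at 17-19 days and 0.82, 0.9, 1.2, 1.3 and 1.39 at 33-44 days. It ran from 0.61 through 1.195 to 1.36 at 169-194 days. The means were 1.125 ± 0.148 (n = 4), 1.122 ± 0.25 (n = 5) and 1.131 ± 0.23 (n = 10), with a difference of 0.006 ± 0.12 (SE; 95% interval -0.237 to 0.249). With the local level subtracted the interval was -0.199 to 0.0629 in H19 A and -0.366 to 0.255 in H19 B1. The interval of H19 B1 thus still held falls of up to 0.366.

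The other 5 H19 clones sat at lower levels, with mean z-scores from 0.265 (H19 B2) to -0.448 (H19 B6) at 17-19 days. H19 B2 averaged 0.26 at 33-44 days and 0.304 at 169-194 days. H19 B3 averaged 0.025, 0.04 and -0.029 over the first 3 bands, and its difference (169-194 minus 17-19 days) was -0.054 ± 0.0745 (SE). H19 B4 averaged -0.03, 0.004 and -0.062 in the same bands, H19 B5 averaged -0.43, -0.368 and -0.399, and H19 B6 averaged -0.448, -0.51 and -0.461. None of these 5 clones passed the test. With the local level subtracted, the 33-44 minus 17-19 day difference was -0.147 (95% interval -0.29 to -0.00421; unadjusted P = 0.044) in H19 B6 and 0.0993 (95% interval 0.00169 to 0.197; unadjusted P = 0.0464) in H19 B2, both with an adjusted p of 1 in limma. As deposited these were -0.0678 and -0.0138, and the 2 clones of one gene thus had opposite signs after correction. With position correction, 2 of the 17 and 460 of all 16896 clones had an unadjusted P under 0.05 in limma for 33-44 minus 17-19 days. The mean of the 6 type B clones differed by -0.00292 ± 0.0471 (SE; 95% interval -0.0983 to 0.0925) between the youngest and the 169-194 day mice.

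The H19 clones did not rise and fall together from mouse to mouse. Over the 38 mice, the 15 pairs of type B clones had Pearson correlations from -0.585 (H19 B4 with H19 B1) to 0.656 (H19 B6 with H19 B5), with a median of 0.0801. With the local level subtracted they ran from -0.541 to 0.453, with a median of 0.0179. The highest pair was then H19 B3 with H19 B4, which lie 2 columns apart in the same row of the inferred layout. H19 B5 and H19 B6, the highest pair as deposited, are diagonal neighbours in that layout, and neighbouring spots deviated together on these arrays. In both pairs each clone lies in the 5 by 5 window of the other. The clones share the same hybridizations, so these values are a description.

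Cdkn1c B, the cell cycle inhibitor, had z-scores of 0.62, 0.75, 0.9 and 1.06 at 17-19 days and 0.61, 0.77, 0.77, 0.92 and 1.11 at 33-44 days. It ran from 0.53 through 0.875 to 1.01 at 169-194 days. The means of 0.833 ± 0.19 (SD, n = 4), 0.836 ± 0.188 (n = 5) and 0.837 ± 0.166 (n = 10) were nearly level, with a difference of 0.0045 ± 0.099 (SE; 95% interval -0.196 to 0.205) for 169-194 minus 17-19 days. Subtracting the local level narrowed the SD at 17-19 days to 0.0588 and gave a difference of 0.0124 (95% interval -0.0807 to 0.105). It did not narrow the spread of every clone. In H19 B1 the SD widened from 0.0705 to 0.117 at 17-19 days and from 0.199 to 0.284 at 169-194 days. In H19 B6 it widened from 0.1 to 0.152 at 17-19 days.

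Peg3 B1, with the highest mean of the type B clones here, had z-scores of 1.46, 1.5, 1.66 and 1.71 at 17-19 days and 1.31, 1.46, 1.51, 1.58 and 1.62 at 33-44 days. It ran from 1.25 through 1.51 to 1.96 at 169-194 days. The means were 1.583 ± 0.121 (n = 4), 1.496 ± 0.121 (n = 5) and 1.543 ± 0.199 (n = 10), and the difference (169-194 minus 17-19 days) was -0.0395 ± 0.112 (SE; 95% interval -0.266 to 0.187). The dimmer Peg3 B2 averaged -0.798, -0.812 and -0.764 in these bands, and Peg3 B3 averaged -0.875, -0.828 and -0.871. Over the 38 mice the 3 pairs of Peg3 clones had correlations from -0.43 to 0.238, so here too clones of one gene did not follow each other. The mean of the 3 clones differed by -0.000667 ± 0.0563 (SE).

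Ndn A, necdin, was widely spread at every age. Its z-scores were 0.1, 0.12, 0.14 and 0.55 at 17-19 days and 0.04, 0.09, 0.19, 0.27 and 0.68 at 33-44 days, and they ran from -0.05 through 0.36 to 0.59 at 169-194 days. The means were 0.228 ± 0.216 (n = 4), 0.254 ± 0.254 (n = 5) and 0.271 ± 0.259 (n = 10), with a difference of 0.0435 ± 0.133 (SE; 95% interval -0.225 to 0.312).

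Dlk1 B, the membrane protein of immature cells, was the dimmest of the 17 clones on its array type, brighter than 15.7% of the spots. Its z-scores were -1.08, -0.94, -0.94 and -0.82 at 17-19 days and -1.1, -0.97, -0.88, -0.87 and -0.82 at 33-44 days, and they ran from -1.31 through -0.93 to -0.49 at 169-194 days. The means were -0.945 ± 0.106 (n = 4), -0.928 ± 0.11 (n = 5) and -0.916 ± 0.222 (n = 10), with a difference of 0.029 ± 0.0969 (SE; 95% interval -0.167 to 0.225). Detection calls were not among the values used, so a dim clone cannot be told from an unexpressed gene.

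The step from 17-19 to 33-44 days, taken alone, had 0 of 17 clones called by limma, beside 0% of all clones. At an unadjusted P under 0.05 it gave 1 of the 17 (Grb10 A, higher), beside 756 of all clones, or 4.47%. A linear model without moderation called 0 and had 792 clones at an unadjusted P under 0.05, and for 169-194 minus 17-19 days it had 756. From 33-44 to 169-194 days, limma called 0 of 17 and 0% of all clones, and had 0 of the 17 and 69 of all clones, or 0.408%, at an unadjusted P under 0.05 (82 without moderation). The 17 differences of this second step ran from -0.0691 (H19 B3) to 0.0543 (H19 B6).

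**Figure D4:**
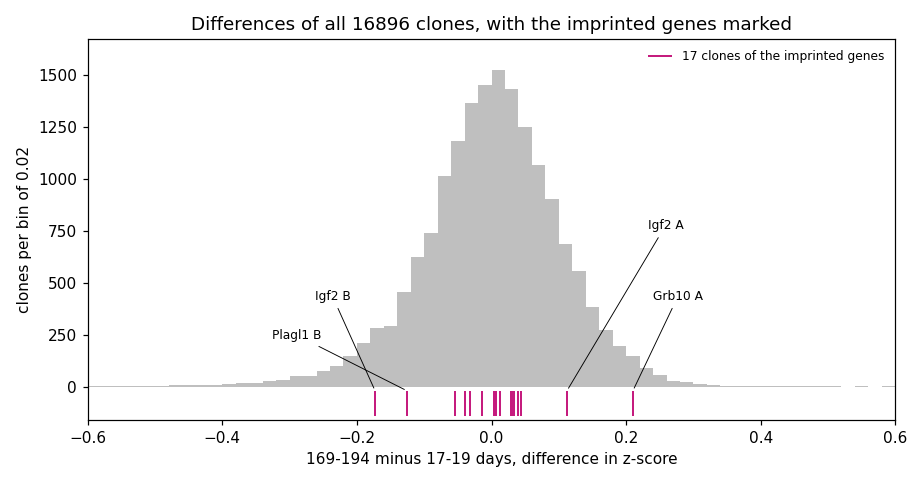
Number of clones (vertical axis, bins of 0.02) by the difference in z-score between 169-194 and 17-19 days (horizontal axis), for all 16896 clones, with the 17 clones of the imprinted genes as ticks below; 13 clones lie beyond the axis at 0.6 on either side. The ticks lie within the body of the distribution, with Igf2 B at -0.173 and Grb10 A at 0.21 as their ends.

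From 169-194 to 476-499 days, limma called 0 of the 17 clones and 0% of all clones; at an unadjusted P under 0.05 it gave 1 of the 17 and 278 of all clones, or 1.65% (299 without moderation). The 1 was H19 B3. Its values ran from -0.26 through -0.005 to 0.2 at 169-194 days, with a mean of -0.029 ± 0.159 (SD, n = 10), and from -0.06 through 0.065 to 0.3 at 476-499 days, with a mean of 0.091 ± 0.113 (n = 10). The difference was 0.12 ± 0.0563 (SE; 95% interval 0.00585 to 0.234; unadjusted P = 0.0399, adjusted p = 0.999 in limma), and it was 0.12 also with the local level subtracted. H19 B2 averaged 0.404 ± 0.151 at 476-499 days, a difference of 0.1 ± 0.0552 (SE). The bright H19 clones had differences below 0, of -0.094 in H19 A and -0.099 in H19 B1, with means of 1.037 ± 0.214 and 1.388 ± 0.237 at 476-499 days. Clones of one gene thus had both signs, and none passed the test.

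The 476-499 day means of the other clones all lay inside the range of the single 169-194 day mice. A band mean varies less than single mice do, so this is a description and not a test. Igf2 B averaged 0.452 ± 0.0805 (SD, n = 10), Igf2 A -0.348 ± 0.263, Grb10 A -0.542 ± 0.117 and Plagl1 B 0.539 ± 0.221. Cdkn1c B averaged 0.768 ± 0.205, Peg3 B1 1.569 ± 0.234, Ndn A 0.269 ± 0.185 and Dlk1 B -0.86 ± 0.156. H19 B4, B5 and B6 averaged -0.002, -0.335 and -0.4, and Peg3 B2 and B3 averaged -0.731 and -0.8.

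From 169-194 to 704-743 days, limma called 0 of the 17 clones and 0% of all clones; at an unadjusted P under 0.05 it gave 0 of the 17 and 427 of all clones, or 2.53% (466 without moderation). The 17 differences ran from -0.0884 in Grb10 A to 0.0834 in H19 B3, with a median of 0.000759, beside -0.00216 over all clones. Grb10 A ran from -0.81 through -0.55 to -0.37 in the 9 oldest mice, with a mean of -0.574 ± 0.155 (SD), and its difference had a 95% interval from -0.21 to 0.0337. H19 B3 averaged 0.0544 ± 0.103 in these mice, with an interval of the difference from -0.034 to 0.201. Position correction gave a difference of 0.093 (95% interval 0.000971 to 0.185; unadjusted P = 0.0477, adjusted p = 0.999 in limma). In that setting 1 of the 17 and 555 of all 16896 clones had an unadjusted P under 0.05. H19 B1 averaged 1.408 ± 0.163 and differed by -0.0812 ± 0.0877 (SE), and Dlk1 B averaged -0.997 ± 0.14 and differed by -0.0783 ± 0.0753 (SE).

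Igf2 B ran from 0.33 through 0.42 to 0.56 in the oldest mice, with a mean of 0.448 ± 0.0911 (SD, n = 9) and a difference of -0.0245 (95% interval -0.158 to 0.109). Igf2 A ran from -0.86 through -0.4 to -0.1, with a mean of -0.402 ± 0.235 and a difference of -0.0254 (95% interval -0.231 to 0.18). The remaining means at 704-743 days were 0.572 for Plagl1 B, 0.842 for Cdkn1c B, 1.589 for Peg3 B1, -0.732 for Peg3 B2, -0.828 for Peg3 B3, 0.222 for Ndn A, 1.092 for H19 A, 0.348 for H19 B2, -0.0289 for H19 B4, -0.371 for H19 B5 and -0.52 for H19 B6. Each lay inside the range of the single 169-194 day mice, again a description and not a test.

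**Figure D5:**
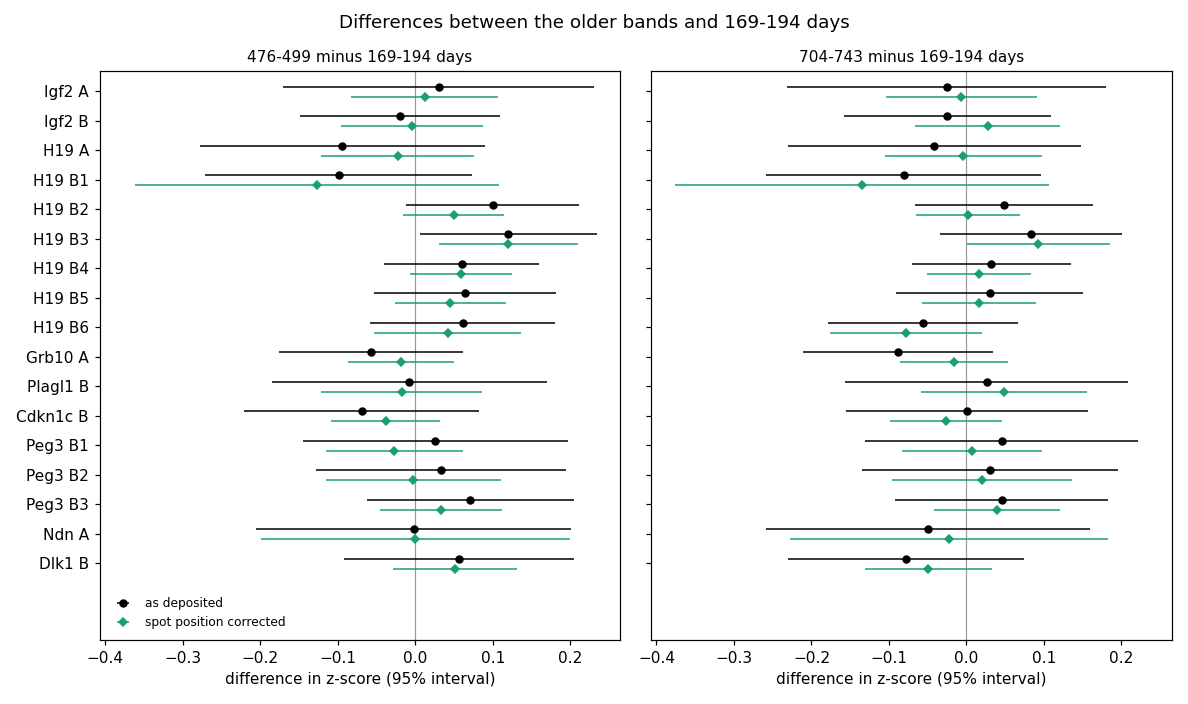
Difference in z-score (horizontal axis, with 95% interval from limma) for each clone, 476-499 minus 169-194 days on the left and 704-743 minus 169-194 days on the right, as deposited (black circles) and with the local level of the surrounding spots subtracted (green diamonds). As deposited, the interval of H19 B3 at 476-499 days lies above 0 and the other intervals of both comparisons include 0; with the local level subtracted, H19 B3 lies above 0 in both.

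Asked for any difference among the 5 age bands, limma's F test called 0 of the 17 clones and 0% of all clones, with 0 of the 17 and 460 of all clones, or 2.72%, at an unadjusted P under 0.05 (517 without moderation). With position correction, the F test had 1 of the 17 and 406 of all 16896 clones under 0.05. The 1 was H19 B6 (unadjusted P = 0.0421, adjusted p = 0.9999 in limma). Males and females were set apart by 0 of 17 clones and by 0% of all clones, with 1 of the 17 and 203 of all clones, or 1.2%, at an unadjusted P under 0.05 (217 without moderation). The 1 was H19 B2, with a mean of 0.372 ± 0.115 (SD) in 19 males and 0.289 ± 0.135 in 19 females. The difference at equal age band was 0.088 ± 0.0402 (SE; unadjusted P = 0.0351, adjusted p = 1 in limma), and 0.0488 with the local level subtracted. Cdkn1c B had the difference furthest on the female side, with means of 0.779 ± 0.171 in males and 0.859 ± 0.156 in females and a difference of -0.0803 ± 0.0545 (SE), or -0.0199 with the local level subtracted.

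The slope on log10 age differed between the sexes for 0 of the 17 clones and 0% of all clones, with 0 of the 17 and 52 of all clones, or 0.308%, at an unadjusted P under 0.05 (71 without moderation). The differences of slopes (male minus female, in z-score per unit of log10 age) ran from -0.0716 in H19 A to 0.104 ± 0.129 (SE) in Igf2 A.

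The other genes of imprinted regions and of the growth pathway were read from lists, each gene by its clone with the highest mean. For 169-194 minus 17-19 days, 0 of 40 clones of 33 other imprinted genes were called by limma, with 22 genes above 0, 11 below and a median of 0.024. For the insulin-like growth factor axis, 0 of 35 clones of 22 genes were called, with 12 genes above 0, 10 below and a median of 0.023. For cell division, 0 of 53 clones of 37 genes were called, with 21 above 0, 16 below and a median of 0.0225. For the fetal heart programme, 0 of 7 clones of 5 genes were called, with 3 above 0 and 2 below and a median of 0.03. The median over all clones was 0.0035. After position correction, the medians of these 4 lists were -0.00295, 0.00817, -0.00301 and 0.0259, and 0 of their clones were called.

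Among the other imprinted genes, the smallest P values belonged to Nnat, a small membrane proteolipid, and Airn, the noncoding antisense RNA of Igf2r, above 0, and to Usp29 and Slc38a4, an amino acid transporter, below 0. Nnat averaged 0.105 ± 0.0173 (SD, n = 4) at 17-19 days and 0.274 ± 0.0771 (n = 10) at 169-194 days, a difference of 0.169 ± 0.0665 (SE) that was 0.00928 with the local level subtracted. Airn, among the dimmest 2.47% of its array type, went from -1.978 to -1.746, a difference of 0.232 ± 0.099 (SE). Usp29 differed by -0.126 ± 0.0916 (SE) and Slc38a4 by -0.095 ± 0.0837 (SE), while a second Slc38a4 clone differed by 0.09. Position-corrected differences were 0.177 for Airn, -0.0534 for Usp29 and 0.0138 for Slc38a4, the last with its sign turned. Each had an adjusted p of 1 in limma.

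In the growth factor axis, Tsc1, an inhibitor of the mTOR pathway, differed by -0.168 ± 0.0807 (SE). Igfbp5, a binding protein of the growth factors, differed by -0.126 ± 0.0679 (SE). Eif4ebp1, a translation repressor controlled by mTOR, differed by 0.0915 ± 0.0698 (SE), and Pdk1 by 0.0985 ± 0.0773 (SE). Pdk1, though counted in this list, is a pyruvate dehydrogenase kinase and not Pdpk1, the kinase of this pathway. After position correction these 4 differences were -0.0811, -0.0386, 0.0374 and 0.0139. None passed the test.

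Of the cell division genes, Aurkb, a mitotic kinase, averaged -0.147 ± 0.222 at 17-19 days and 0.124 ± 0.213 at 169-194 days, a difference of 0.272 ± 0.0876 (SE; unadjusted P = 0.00374, adjusted p = 0.985 in limma). Cdc20, an activator of the anaphase-promoting complex, differed by 0.106 ± 0.0891 (SE). Ccna2, cyclin A2, differed by -0.299 ± 0.131 (SE) on a clone among the dimmest 1.16% of its array type, and its other clones differed by 0.249 and -0.134. Ccnd2, cyclin D2, averaged 0.917 ± 0.116 and 0.714 ± 0.204, a difference of -0.204 ± 0.099 (SE), and its 5 other clones differed by -0.246, 0.0385, -0.022, 0.0725 and -0.036. Position-corrected differences were 0.131 for Aurkb, 0.105 for Cdc20, -0.11 for Ccna2 and -0.047 for Ccnd2. In the fetal heart list, both clones of Pkm, a glycolytic enzyme, differed by 0.264 ± 0.127 and 0.207 ± 0.107 (SE), Hk1, a hexokinase, by -0.0815 ± 0.0847 (SE) and Nppb, the B-type natriuretic peptide, by -0.002 ± 0.114 (SE). After position correction the Pkm clones differed by 0.133 and 0.0716, and Hk1 and Nppb turned above 0, at 0.0837 and 0.0173.

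The genes whose values over the 38 mice were most like those of each member, with the local level subtracted and within 1 array type, were Mycbp2 (Pearson r = 0.8) and Nod1 (0.782) for Igf2 B, and Setdb1 (0.944) and Smarcb1 (0.937) for H19 B1. For Grb10 A they were Mei1 (0.649) and Cldn6 (0.616), and for Plagl1 B they were Sfpq (0.823) and Dppa3 (0.822). Cdkn1c B was most like Rpl7l1 and Psip1 (0.77 each), Peg3 B1 most like Trib1 (0.801) and Mbtps1 (0.741), Ndn A most like Ino80d (0.887) and Xpr1 (0.823), and Dlk1 B most like Ift81 (0.701) and Ttf1 (0.683). No other imprinted growth gene was among these 16. The search ran over 4787 to 4874 clones per gene, while type A held 4 member clones and type B held 13. Finding none was thus likely beforehand and says little on whether these genes vary together. For some pairs the likeness was absent in the values as deposited: Peg3 B1 and Trib1 then had r = -0.248, and Dlk1 B and Ttf1 had -0.0826. All these clones share the same arrays, and r was the highest among all clones with 1 symbol on the array type.

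Facts of the whole set bear on every result above. Replicate arrays of a type had a median correlation of 0.954 (type A) and 0.971 (type B), and mice 05 and 09 had the lowest medians, 0.871 and 0.866 on type A. Neighbouring spots deviated together, with a correlation of deviations of 0.626 (type A) and 0.59 (type B) for spots in the next column and 0.125 and 0.109 for distant spots of the same block. In a whole heart, fewer cells of a type and less RNA per cell cannot be told apart. Of 20 cardiomyocyte markers 3 were measured (Actn2, Atp2a2 and Cryab), and they were brighter than 72.5% to 91.2% of the spots. Their mean z-score was 0.736 at 17-19 days (0.63 to 0.84 among mice) and 0.873 at 169-194 days (0.647 to 1.117). Of 17 fibroblast and matrix markers 11 were measured, with means of 0.533 (0.484 to 0.608) and 0.506 (0.41 to 0.63) at the same ages. All 3 cardiomyocyte markers were higher at 169-194 days (median difference 0.1035). Of the fibroblast and matrix markers 8 were lower and 3 higher (median -0.02). The other measured lists had medians of -0.028 (endothelial), -0.0035 (smooth muscle and pericyte) and -0.0145 (red cell). Those of leukocyte, skeletal muscle, and epicardium and mesothelium markers were 0.004, -0.024 and -0.025. These values are as deposited. In each of these lists 0 markers were called, and their part in the results was not tested.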

How the data were processed

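Total RNA of 38 hearts was labelled with 33P and hybridized to membrane arrays of types A and B, per the labels. The deposited values are a score: the authors standardized each array to mean 0 and SD 1 (z-score), as the values show; no source used here gives the scale before that step, background correction or filters. Each type's 8448 clones were fitted apart with limma 3.58.1 in R 4.3.3 (age band and sex, 2-sided), and P values of both types were adjusted together (Benjamini-Hochberg, 0.05). Each mouse is 1 replicate, with 1 array of each type. The p-values measure the spread between these mice, which cannot be told apart from the spread between arrays. Gene symbols come from the platform annotation. The surrounding-spot correction uses a layout of 22 blocks of 16 rows and 24 columns inferred from identifier order. Members and gene lists were chosen with earlier results of these data known. All 17 clones are named; from each list, the 2 clones with the smallest P in each direction for 169-194 minus 17-19 days. Likeness used each gene's clone with the highest mean. Alternatives were a number-set block, quantile normalization, position correction, array weights, no moderation, no dim clones (lowest 25%), clone means, leaving out number set 1, mice 05 and 09 or each mouse, compared mice only and no sex term. The script was tested on simulated data. Array number limits the precision, and depth does not apply.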

Additional observations from a re-analysis of the deposited data

Results flagged for a closer look

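Among 85 groups of a clone and an age band, 7 held a mouse far from the others by Dixon's criterion, which chance meets in about 1 in 20 groups. Mouse 01 (33-44 days) was the one apart in 3 of them: it had the highest Igf2 B at 0.79, with the next mouse at 0.42, the highest H19 B5 at -0.13, with the next at -0.39, and the lowest Peg3 B2 at -0.95, with the next at -0.79. Mouse 02 (17-19 days) had the highest Igf2 B at 0.89, with the next at 0.57. Mouse 16 of the same band had the highest Ndn A at 0.55, with the next at 0.14, and mouse 42 the lowest H19 B3 at -0.07, with the next at 0.05. Mouse 05 (169-194 days), whose arrays correlate least with the others beside those of mouse 09, had the lowest Igf2 A at -0.88, with the next at -0.45. Mice 01, 02, 05 and 09 belong to the first number set.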

How the results depend on the processing

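Across the 11 alternatives and 38 fits that each left out 1 mouse, 0 clones of the imprinted growth genes passed the threshold; the smallest adjusted p was 0.0952, with array weights, for both Grb10 A (0.224) and Igf2 B (-0.206), 169-194 minus 17-19 days. Counts of called clones, 0 in each comparison, became 9 for 33-44 minus 17-19 days, 61 for 169-194 minus 17-19 days (24 higher, 37 lower) and 9 for the F test with array weights. They became 1 for the F test with position correction and 2 for 169-194 minus 17-19 days without number set 1; leaving out single mice gave 0 to 1 for that comparison, with 1 clone without replicate 1 of 169-194 days or replicate 2 or 3 of 17-19 days. The cause was not tested. Differences near 0 changed sign, for 169-194 minus 17-19 days unless stated. With position correction they were -0.0678 in H19 A, -0.0557 in H19 B1, -0.0124 in Ndn A, -0.0127 in Dlk1 B, -0.0575 in Igf2 A (33-44 minus 17-19 days) and 0.0273 in Igf2 B (704-743 minus 169-194 days). With array weights they were -0.00663 in H19 B1 and -0.0109 in Dlk1 B, and 0.00306 and 0.0104 in Igf2 A and Igf2 B (704-743 minus 169-194 days). Without number set 1 they were -0.0272 in H19 B1, -0.00806 in Cdkn1c B and -0.0404 in Dlk1 B, and 0.0192 and 0.0237 in Igf2 A and Igf2 B (704-743 minus 169-194 days). Without mice 05 and 09 they were -0.0273 in H19 B1 and -0.0183 in Dlk1 B, and 0.00889 in Igf2 B (704-743 minus 169-194 days). Number-set blocks gave -0.0138 in Cdkn1c B and -0.0281 in Igf2 A (33-44 minus 17-19 days), and quantile normalization gave -0.00862 in H19 B1. The mean of the H19 clones on type B, set against H19 B1, gave -0.00292, 0.051 (476-499 minus 169-194 days) and 0.00949 (704-743 minus 169-194 days). Leaving out single mice gave -0.0828 to 0.0692 in Cdkn1c B, -0.0173 to 0.0765 in Dlk1 B, -0.045 to 0.0631 in H19 A, -0.0259 to 0.0439 in H19 B1 and -0.0878 to 0.00618 in Peg3 B1, and for 704-743 minus 169-194 days -0.08 to 0.033 in Igf2 A and -0.0428 to 0.015 in Igf2 B. All 85 band means moved by less than 1 SD under quantile normalization. No paired analysis was possible because each mouse belongs to 1 age band. The youngest band holds 4 mice, and z-scores give no signal over background.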

Other observations

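The clone annotated to both Copg2 and Mest had a mean z-score of -0.883 ± 0.0793 (SD, n = 4) at 17-19 days, -0.822 ± 0.0622 (n = 5) at 33-44 days and -0.818 ± 0.109 (n = 10) at 169-194 days. It averaged -0.916 ± 0.247 (n = 10) at 476-499 days and -0.817 ± 0.0719 (n = 9) at 704-743 days. Its difference (169-194 minus 17-19 days) was 0.0645 (95% interval -0.112 to 0.241; limma, adjusted p = 1). The clone annotated to both Airn and Igf2r averaged -0.475 ± 0.058, -0.45 ± 0.113, -0.474 ± 0.0455, -0.499 ± 0.094 and -0.51 ± 0.108 in the same order of bands, with a difference of 0.001 (95% interval -0.116 to 0.118; limma, adjusted p = 1). The annotation does not say which of its genes such a clone reads.

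In the fetal heart list, 4 of 5 genes were below 0 for 476-499 minus 169-194 days, with a median difference of -0.148. Over all clones 48% were above 0 and the median was -0.003. By limma 0 of the list's 7 clones were called, and 2 of the 5 genes had an unadjusted P under 0.05, beside 278 of 16896 clones. For 704-743 minus 169-194 days 4 of 5 were below 0, with a median of -0.0461, beside -0.00216 over all clones. The position-corrected medians were -0.15 and -0.106.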
